A study of Drosophila melanogaster with 9 samples.

Results

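The genes described here are 40 patterning and developmental regulators of Drosophila melanogaster, most of them transcription factors, that are classic targets of Polycomb repression. They were taken as a list of FlyBase symbols, and all 40 were found among the 17611 gene IDs counted in each library. The rule uses no measured value, but the list was chosen with earlier results of these data known. Of the 40, 36 passed the filter on low counts and could be tested, while ftz, ind, lbe and tin did not.

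RNA of whole first instar larvae was counted in 3 groups of 3 libraries. The groups were wild-type males, males of the genotype roX1[ex6]roX2[9-4], in which both noncoding roX RNAs are disrupted (roX-KO males), and wild-type females. The labels give neither a strain for the wild type nor a number of larvae per library, and whether the replicates are separate cultures is not stated. The p-values below thus describe library-to-library spread, which may be technical. The roX RNAs belong to the MSL complex, which raises transcription of the single male X, and the title of the series asks about autosomal repression by them.

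Polycomb group proteins keep developmental regulators silent in cells where these genes were off in the embryo. The repressive complex PRC2 methylates histone H3 at lysine 27, and PRC1 binds the modified chromatin and compacts it. In a larva the same genes are active in restricted places, such as segmental stripes of epidermis, imaginal disc precursors, single heart and muscle cells and small sets of neurons. RNA of the whole animal therefore averages a few expressing cells with many silent ones, and a change in the number of expressing cells and a change in RNA per cell cannot be told apart.

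Counts in genes came to 17318293 to 18020359 per library. The roX1 counts were 4964 to 6002 in wild-type males, 52 to 68 in roX-KO males and 314 to 440 in females, and the roX2 counts were 150 to 181, 0 in each library, and 3 to 6, in the same order, as the labelled genotypes and sexes would have it. The extraction protocol given for the female samples speaks of male larvae, while their title and sex label say female. Female library 3 stood apart from the other females: over all tested genes its log2 CPM correlated with theirs at Pearson's r of 0.954 and 0.957, while the other pairs within a group had 0.991 to 0.996. Deviations from the group mean in female library 3 also went with those of wild-type male library 2 (r = 0.69 across genes, which are not independent). Results of the regulators in females are therefore given with and without female library 3. No label names a batch, so a batch of female libraries, if there was one, and sex cannot be told apart.

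Most of the regulators were present at low but measurable levels, and tsh, cad and al led their order. Levels are given as CPM, a gene's count relative to the TMM-scaled total of its library, and between genes per kilobase of annotated exon. In wild-type males the highest level was that of tsh, a zinc finger gene of the trunk, with 10.4 ± 0.806 CPM per kb (SD, n = 3). It was followed by cad, a homeobox gene of the posterior body and gut, with 8.29 ± 0.655 CPM per kb, and by al, a homeobox gene of the distal limb, with 5.04 ± 0.274 CPM per kb. The middle of the order was close: Dll at 1.19 ± 0.187, inv at 1.03 ± 0.151 and slou at 1.00 ± 0.216 CPM per kb differed by less than their spread.

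The bottom of the order held genes with a handful of reads. The pair-rule gene ftz had 0 counts in each wild-type male, 2, 4 and 1 in roX-KO males and 0, 2 and 0 in females. The muscle and heart gene lbe had 1 count in a single roX-KO library and 1 in a single female library. The neuroectoderm gene ind had 2, 0 and 0 counts in wild-type males, 1, 1 and 3 in roX-KO males and 2, 1 and 2 in females. The heart gene tin had 3, 4 and 4, then 8, 4 and 1, then 6, 5 and 4. These 4 genes were not tested in the reported fit. Without the filter on low counts ftz alone among them passed as higher in roX-KO males than in wild-type males, on 1 to 4 counts per roX-KO library.

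**Figure D1:**
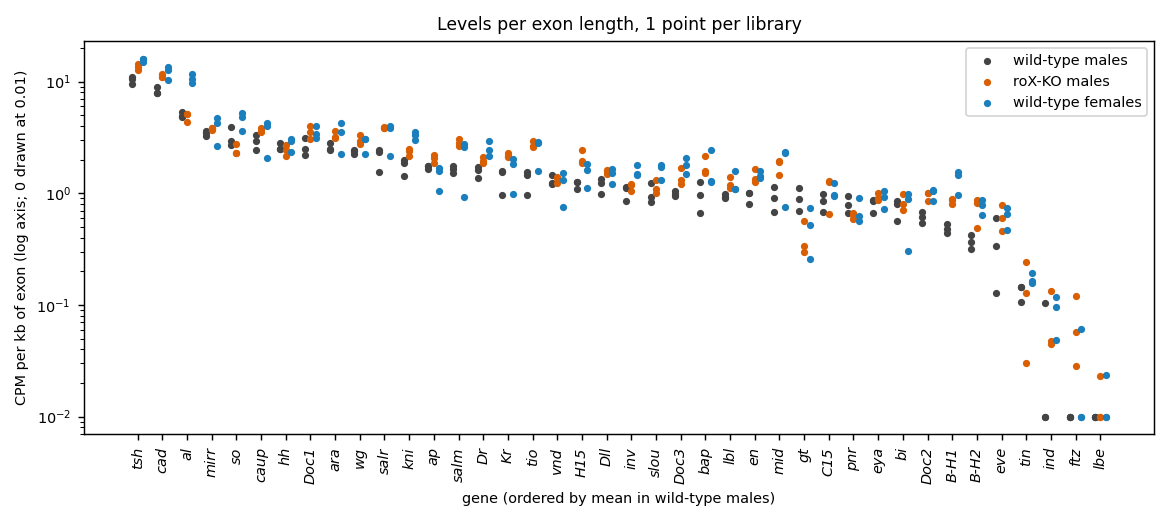
CPM per kilobase of exon (log axis, with 0 drawn at 0.01) of the 40 regulators in each library, ordered by the mean of the wild-type males, with grey points for wild-type males, orange for roX-KO males and blue for wild-type females. The order runs from tsh at 10.4 CPM per kb in wild-type males to ftz and lbe at 0.

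In males without roX RNAs many of these regulators rose by a modest amount. Of the 36 tested, 22 were higher and 2 lower than in wild-type males at an adjusted p under 0.05 (edgeR quasi-likelihood test, adjusted over all 11172 genes tested). The same threshold called 31.4% of all genes higher and 32.1% lower, so the share of regulators called higher, 61.1%, was above the background and the share called lower was below it. Their median log2 fold was 0.39, against 0.02 for all genes, and 31 of 36 values were positive. In 24 of 36 the lowest roX-KO library lay above the highest wild-type male library, which held for 34.7% of all genes tested.

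The number of calls moved with the scaling of the libraries, which shifts the values of all genes alike. With total counts in place of TMM the median of all genes moved to 0.25 and that of the regulators to 0.62, with 27 higher and 1 lower, where 48.9% of all genes were called higher and 21.4% lower. With factors from the large autosome arms the medians were -0.04 and 0.33, with 18 higher and 2 lower, where 27.3% of all genes were called higher and 35.5% lower. Of the 22 called higher, 12 kept their call whichever single library was left out, and of the 2 called lower, 1 did. The share of all genes that kept a call in this way was not computed, so these counts have no background. Leaving out roX-KO library 1 gave the fewest, 14 higher and 1 lower, where 26.9% of all genes were called higher and 28.6% lower.

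**Figure D2:**
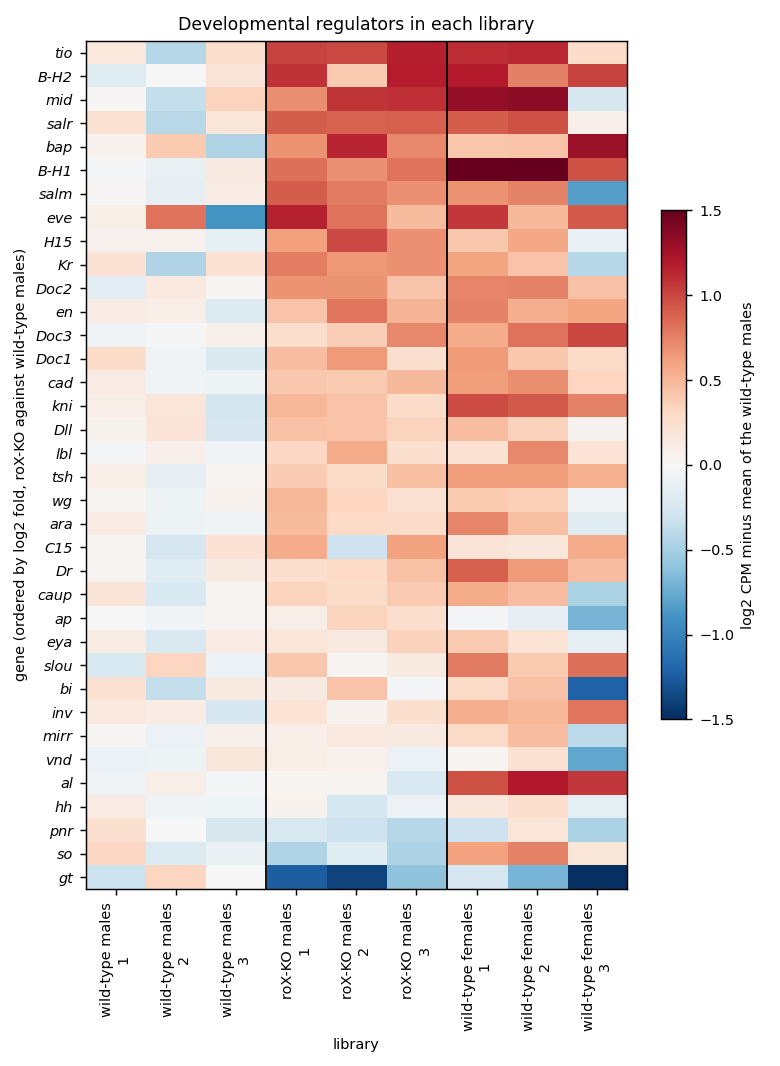
Colour shows log2 CPM minus the mean of the wild-type males for the 36 tested regulators (rows, ordered by the fold between the male groups) in the 9 libraries (columns); red is higher, blue lower, and colours saturate at 1.5. The roX-KO columns are red for most genes, with medians of 0.42, 0.38 and 0.37 over the rows, and female library 3 is paler than females 1 and 2, with a median of 0.19 against 0.60 and 0.49.

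The 4 zinc finger regulators of trunk and wing all rose in roX-KO males, where 31.4% of all genes were called higher. The gene tio (2L, 22019208 to 22025734, dm6), which shares the trunk role of its relative tsh, had 8.27, 5.5 and 8.92 CPM in wild-type males and 15, 14.8 and 16.8 in roX-KO males. The groups were far apart, and the log2 fold was 1.04 ± 0.14 (SE, n = 3 per group; edgeR adjusted p = 4.77e-05), the largest rise among the members. Of its exon length, 15.5% is shared with another gene on the same strand, and reads there cannot be given to either gene with certainty.

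Its neighbour tsh had 52.5, 45.0 and 50.1 CPM in wild-type males and 64.1, 59.6 and 67.3 in roX-KO males, again without overlap. The log2 fold of tsh was 0.38 ± 0.08 (edgeR adjusted p = 0.00161). The spalt genes salm and salr, which pattern the wing, trachea and sense organs, rose together. Values of salm were 10.1, 9.19 and 10.8 CPM in wild-type males and 18.9, 17.2 and 16.2 in roX-KO males (log2 fold 0.81 ± 0.10, edgeR adjusted p = 2.03e-05). Values of salr were 13.4, 8.52 and 13 CPM against 21.5, 21.1 and 21.3 (log2 fold 0.88 ± 0.13, edgeR adjusted p = 0.000105). For both spalt genes every roX-KO library was above every wild-type male.

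Among the genes of heart and muscle identity 7 of 9 tested rose, where 31.4% of all genes were called higher. The T-box gene mid, which acts in heart precursors and in the segmented epidermis, had 2.64, 1.99 and 3.31 CPM in wild-type males and 4.28, 5.57 and 5.69 in roX-KO males (log2 fold 0.97 ± 0.19, edgeR adjusted p = 0.000652). Its neighbour and relative H15 had 4.16, 4.17 and 3.61 CPM against 6.15, 8.01 and 6.43 (log2 fold 0.79 ± 0.14, edgeR adjusted p = 0.000400). The homeobox gene bap, needed for gut muscle, had 1.41, 1.81 and 0.964 CPM against 2.22, 3.13 and 2.29, without overlap (log2 fold 0.87 ± 0.24, edgeR adjusted p = 0.00687).

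The 3 Dorsocross T-box genes, which act together in the heart and the extraembryonic amnioserosa, passed by less. Their log2 folds were 0.45 ± 0.16 for Doc1, 0.64 ± 0.21 for Doc2 and 0.50 ± 0.19 for Doc3 (edgeR adjusted p = 0.0267, 0.0160 and 0.0391). The groups of Doc1 overlapped and those of Doc2 and Doc3 did not. The call of Doc1 ended without wild-type male 3 or roX-KO male 1 or 2 (adjusted p up to 0.119), that of Doc2 without wild-type male 1 or roX-KO male 1 (up to 0.0676), and that of Doc3 without any library but roX-KO male 1 (up to 0.177). The muscle gene lbl was at 0.39 ± 0.16 (edgeR adjusted p = 0.0456, and up to 0.151 without wild-type male 1 or 3 or roX-KO male 1 or 2). The GATA factor gene pnr, of heart and dorsal epidermis, did not pass (log2 fold -0.34, edgeR adjusted p = 0.0942; it was at -0.47 with 0.0341 without wild-type male 3), nor did the muscle identity gene slou (0.20, edgeR adjusted p = 0.376).

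Of the gap and posterior genes, which divide the early embryo into broad regions, 3 rose and 1 fell. Of all genes tested 31.4% were called higher and 32.1% lower. The gap gene Kr had 6.86, 4.29 and 6.93 CPM in wild-type males and 10.1, 9.29 and 9.53 in roX-KO males (log2 fold 0.68 ± 0.15, edgeR adjusted p = 0.00200). The gene cad had 23.2, 20.5 and 20.1 CPM against 28.1, 28.0 and 29.8 (log2 fold 0.43 ± 0.08, edgeR adjusted p = 0.000695). Both were without overlap between the groups. The gap gene kni, later used in trachea and wing veins, had 4.16, 4.41 and 3.19 CPM against 5.54, 5.25 and 4.74 (log2 fold 0.41 ± 0.15, edgeR adjusted p = 0.0301). That call ended without wild-type male 1 or 3 or roX-KO male 1 or 2 (adjusted p up to 0.159). The gap gene gt, on the X, had 1.23, 1.99 and 1.57 CPM in wild-type males and 0.604, 0.531 and 0.998 in roX-KO males. Its groups did not overlap, and its log2 fold of -1.14 ± 0.29 (edgeR adjusted p = 0.00450) was the deepest of the list, on 10 to 33 counts per male library.

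Segment polarity genes, which hold the stripes within each segment, were divided. The homeobox gene en, a standard target in work on Polycomb response elements, had 2.82, 2.78 and 2.23 CPM in wild-type males and 3.53, 4.62 and 3.74 in roX-KO males (log2 fold 0.61 ± 0.17, edgeR adjusted p = 0.00702). Its neighbour inv, a close relative with overlapping function, had 6.69, 6.53 and 5.06 CPM against 7.0, 6.26 and 7.18, and the groups overlapped (log2 fold 0.17 ± 0.13, edgeR adjusted p = 0.280). The signal gene wg, a Wnt ligand, was at 0.37 ± 0.11 (edgeR adjusted p = 0.0137, and 0.0800 without roX-KO male 1). The signal gene hh, the Hedgehog ligand, was at -0.09 ± 0.13 (edgeR adjusted p = 0.548). The pair-rule gene eve had 8, 14 and 3 counts in wild-type males and 22, 16 and 13 in roX-KO males, which did not pass (edgeR adjusted p = 0.115; without wild-type male 2 it was 0.0142). Of the eve exons, 16.7% lie under asRNA:CR43948 on the other strand. Whether reads there were told apart in the counting is not known, because the strand setting is not given.

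The column genes of the neuroectoderm, which set identity from the midline outwards, gave a single call. The homeobox gene Dr (also known as msh) was at 0.34 ± 0.14 (edgeR adjusted p = 0.0442), a call that ended without any library but wild-type male 3, with an adjusted p of up to 0.144. The X gene vnd was at 0.03 ± 0.13 (edgeR adjusted p = 0.836).

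Of the 2 eye genes 1 was called lower, and of 7 limb axis genes, the Bar genes below among them, 3 were called higher. The limb share, 42.9%, was near the 31.4% of all genes called higher, and 32.1% of all genes were called lower. The eye gene so, a homeobox partner of eya, had 10.9, 7.55 and 8.13 CPM in wild-type males and 6.40, 7.69 and 6.33 in roX-KO males. The groups overlapped, and the call of so as lower (log2 fold -0.38 ± 0.15, edgeR adjusted p = 0.0416) ended without wild-type male 1 (-0.21, adjusted p = 0.211) or without roX-KO male 1 or 3. Its partner eya was at 0.23 ± 0.16 (edgeR adjusted p = 0.223). The limb gene Dll had 4.05, 4.47 and 3.25 CPM against 5.34, 5.25 and 4.94, without overlap (log2 fold 0.41 ± 0.14, edgeR adjusted p = 0.0251). Its call ended without wild-type male 1 or 3 or roX-KO male 1 or 2 (adjusted p up to 0.138). The limb genes al, at -0.04 ± 0.11, ap, at 0.24 ± 0.11, C15, at 0.36 ± 0.26, and bi, at 0.17 ± 0.17, did not pass (edgeR adjusted p = 0.761, 0.0692, 0.247 and 0.410). Without roX-KO male 2 the value of C15 was 0.61 (adjusted p = 0.0313).

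The Iroquois genes ara, caup and mirr, which pattern the notum and the eye, had log2 folds of 0.36 ± 0.11, 0.33 ± 0.11 and 0.13 ± 0.09 (edgeR adjusted p = 0.0122, 0.0172 and 0.204). All 3 had every roX-KO library above every wild-type male, although mirr missed the threshold. The call of ara ended without roX-KO male 1 (adjusted p = 0.0680) and that of caup without roX-KO male 3 (0.0627).

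Regulators on the X did not all follow the chromosome, which as a whole lost expression in these males. Of tested X genes 13.3% were called higher and 58.9% lower, against 34.6% and 27.2% of genes on the large autosome arms. Of the 31 tested autosomal regulators 20 were higher and 1 lower, and of the 5 on the X 2 were higher and 1 lower. The 2 were the Bar homeobox genes, neighbours that act in sense organs, eye and leg. Values of B-H1 were 1.29, 1.21 and 1.45 CPM in wild-type males and 2.42, 2.18 and 2.39 in roX-KO males (log2 fold 0.83 ± 0.19, edgeR adjusted p = 0.00179). Values of B-H2 were 0.997, 1.15 and 1.33 CPM against 2.57, 1.54 and 2.74 (log2 fold 0.99 ± 0.26, edgeR adjusted p = 0.00450). Both pairs of groups were without overlap, on 17 to 55 counts per male library, and both calls held whichever library was left out.

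**Figure D3:**
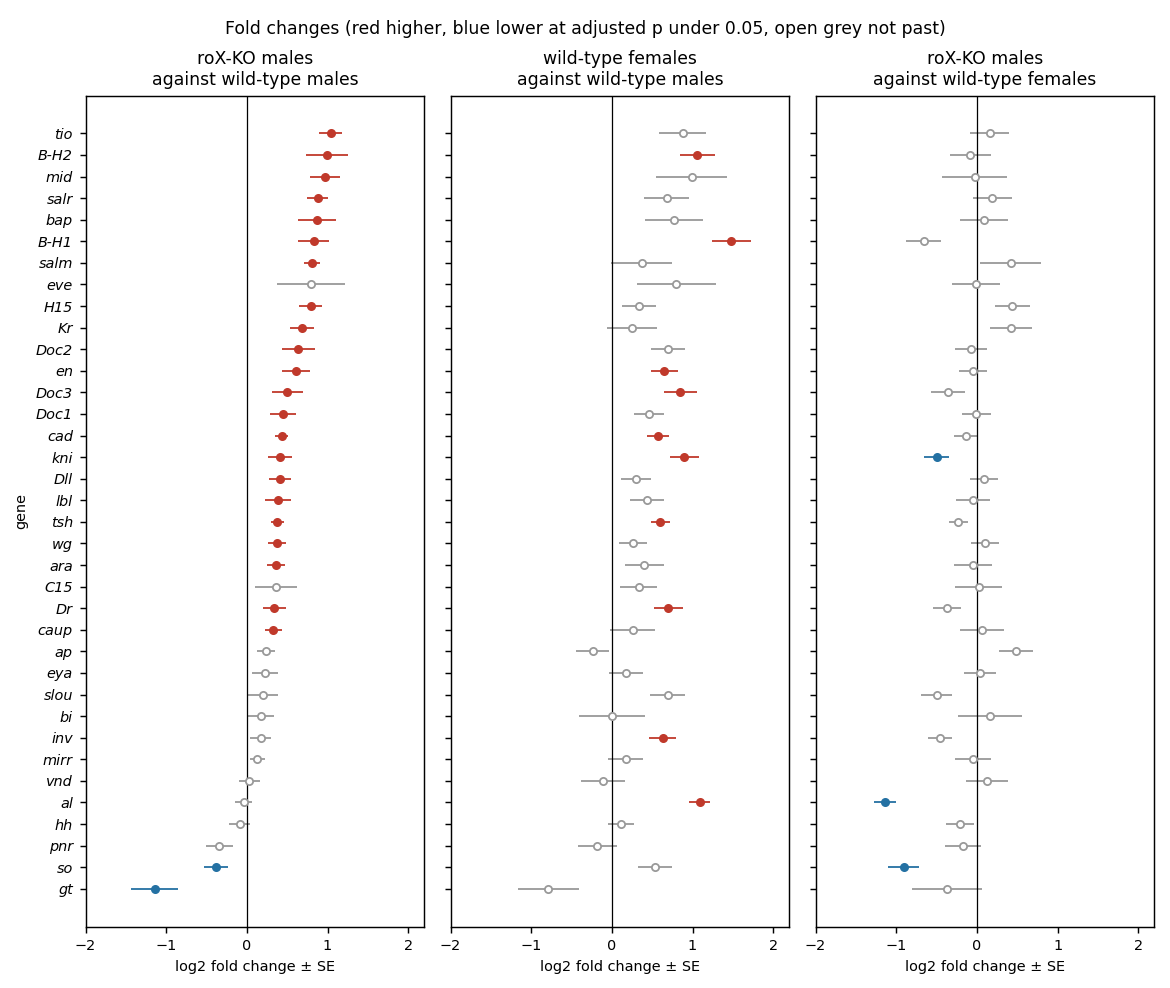
Points show the log2 fold change and lines its SE for the 36 tested regulators in the 3 comparisons; red and blue are called higher and lower at an adjusted p under 0.05, and open grey points did not pass. In roX-KO against wild-type males the values run from 1.04 for tio to -1.14 for gt; in females against wild-type males 10 points are red; between roX-KO males and females the 3 called are blue.

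Many of the regulators sit beside a relative, and neighbours are listed with the distance between them because such pairs often share regulatory sequence. No protein-coding gene lies between en and inv (14.3 kb apart on 2R), salr and salm (60.7 kb on 2L), H15 and mid (45.0 kb on 2L), B-H2 and B-H1 (73.3 kb on the X), or ara, caup and mirr (13.6 and 71.8 kb on 3L). The gap from tsh to tio was 182.2 kb on 2L and held 7 protein-coding genes. Both members were called higher in roX-KO males for the spalt, H15, Bar and tsh pairs, and only en of its pair. The difference in response between en and inv was not tested. In the cluster of homeobox genes on 3R that runs from tin through bap, lbl, lbe and C15 to slou, bap and lbl were called higher, C15 and slou were not, and tin and lbe were too low to test.

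**Figure D4:**
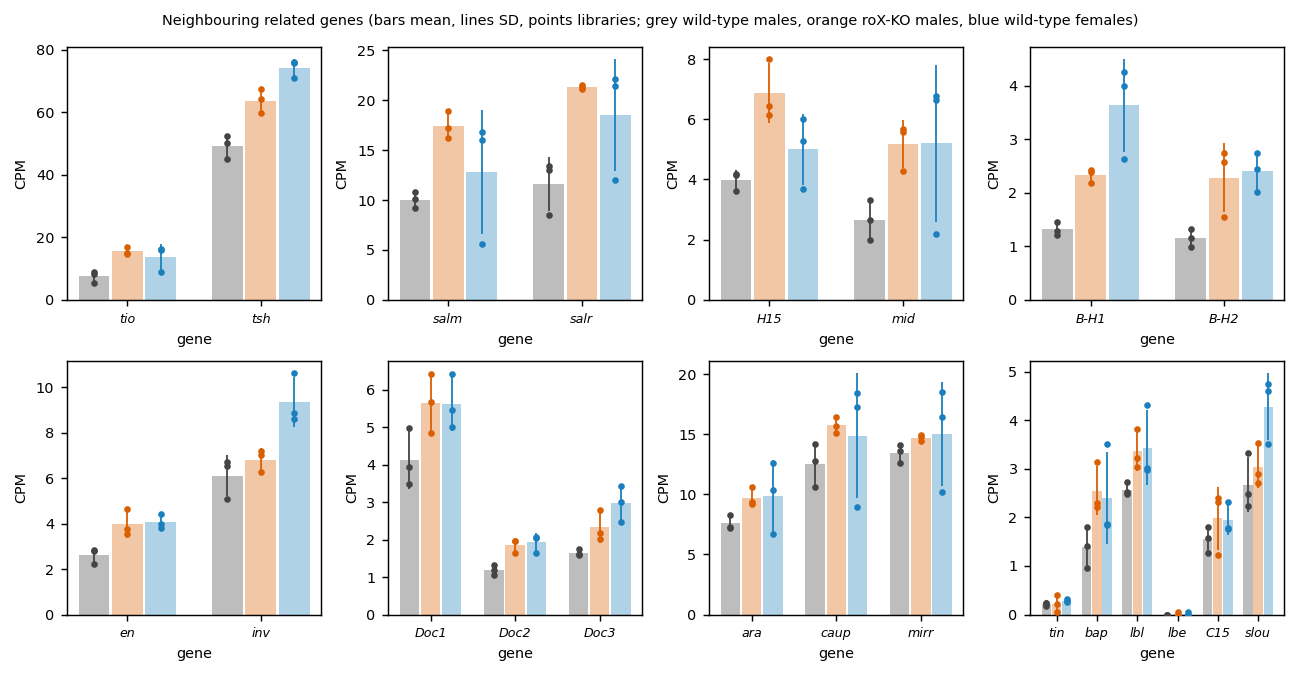
CPM of related neighbouring genes; bars give group means, lines the SD and points the libraries, with grey for wild-type males, orange for roX-KO males and blue for wild-type females, each panel on its own axis from 0. The roX-KO points lie above the wild-type male points in both genes of the tsh, spalt, H15 and Bar panels, while those of inv overlap.

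Wild-type females also had higher levels of part of the list than wild-type males, at a lower precision. Of the 36 tested, 10 were higher at an adjusted p under 0.05, where 10.8% of all 11104 genes tested were called higher and 11.2% lower. None of the 36 was lower by edgeR, at an unadjusted p under 0.05 either (0), and DESeq2 called 0. The median log2 fold was 0.49, against 0.04 for all genes. In 16 of 36 the lowest female lay above the highest wild-type male, which held for 20.6% of all genes. Without female library 3 the count was 24 higher and 0 lower, where 26.1% of all genes were called in each direction. The median log2 fold was then 0.57, against 0.01 for all genes. Leaving out any other library gave 2 to 4, where 3.84 to 6.87% of all genes were called higher. Of the 36 members 2, al and B-H1, kept their call whichever library was left out, and the share of all genes that did so was not computed.

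The gene al had 8.74, 9.67 and 8.92 CPM in wild-type males and 17.7, 21.1 and 19.1 in females. Its levels in the 3 females were far above all 6 males (log2 fold 1.09 ± 0.13, edgeR adjusted p = 0.00200). The gene B-H1 had 4.00, 4.26 and 2.64 CPM in females, above the 1.21 to 1.45 of wild-type males (log2 fold 1.48 ± 0.24, edgeR adjusted p = 0.00670). Its neighbour B-H2 was at 1.06 ± 0.22 (edgeR adjusted p = 0.0157, and up to 0.0794 without a wild-type male or female 1).

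The other 7 calls were kni (0.90 ± 0.18), Doc3 (0.85 ± 0.20), Dr (0.70 ± 0.18), en (0.65 ± 0.17), inv (0.63 ± 0.17), tsh (0.60 ± 0.12) and cad (0.57 ± 0.14). Their edgeR adjusted p ran from 0.0124 for kni to 0.0434 for inv, and all held without female 3. The call of kni ended without wild-type male 1 or 3, that of Doc3 without any wild-type male or female 2, and the others without any library but female 3, with an adjusted p of up to 0.195 for inv without wild-type male 3. For tsh the 3 females were at 75.9, 75.8 and 70.9 CPM, above every male of either genotype.

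Female library 3 was the lowest female in 27 of the 36 tested regulators (75.0%), and in 45.0% of all genes tested. The spalt genes show it: salm had 16.0, 16.8 and 5.61 CPM in females, and salr 21.4, 22.1 and 12. Females 1 and 2 lay above every wild-type male in both genes, whereas female 3 lay below every wild-type male in salm and within their range in salr. Over the 3 females salm was at 0.37 ± 0.38 (edgeR adjusted p = 0.556), and without female 3 at 0.72 (adjusted p = 0.000434). Likewise mid had 6.64, 6.77 and 2.18 CPM, with log2 folds of 0.99 (adjusted p = 0.164) and, without female 3, 1.35 (0.000255), and tio had 16.0, 16.3 and 8.97 CPM, with 0.88 (0.0761) and 1.10 (0.000428).

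Set directly against all 3 females, roX-KO males were called different in few of the regulators. None of 36 was higher by edgeR (0 at an unadjusted p under 0.05, and 0 by DESeq2) and 3 were lower, where 10.7% of all 11173 genes tested were called higher and 16.6% lower. The median log2 fold was -0.05, against -0.01 for all genes. The lower genes were al, at -1.14 ± 0.14 (edgeR adjusted p = 0.00127), so, at -0.91 ± 0.19 (0.0130), and kni, at -0.50 ± 0.15 (0.0433). The females had 13.3, 14.7 and 9.96 CPM of so, each above every roX-KO library. The call of al held whichever library was left out, that of so ended without roX-KO male 1 (adjusted p = 0.0702) or 3, and that of kni without any library but female 3 (up to 0.174 without roX-KO male 3).

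Without female 3, 12 were lower, these 3 among them, and 1 was higher, where 3384 of 11280 genes were called higher and 3566 lower. The higher gene was ap (0.29, edgeR adjusted p = 0.0457). A missed threshold does not show that roX-KO males and females have like levels: the standard errors reached 0.43, for gt. All 3 comparisons share groups, so their values stand side by side and do not support each other.

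Other developmental regulators moved much like the listed ones between the male groups. Of 87 further transcription factor and signal genes of the same kind, 74 were tested. In roX-KO males 37 of the 74 were higher and 3 lower, where 31.4% of all genes tested were called higher and 32.1% lower. The median log2 fold of the 74 was 0.36, against 0.02 for all genes. The largest rises were in rib, a BTB factor of trachea and salivary gland (3.16 ± 0.13), exex, a homeobox gene of motor neurons (0.97 ± 0.10), and zfh2 on chromosome 4 (0.95 ± 0.11). The falls were in ase, a neural precursor gene on the X (-1.08 ± 0.21), nerfin-1, of early neurons (-0.83 ± 0.25), and btl, the tracheal FGF receptor gene (-0.34 ± 0.09).

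Genes of the Polycomb machinery itself also rose in roX-KO males. Of 21 Polycomb group genes 17 were higher (81.0%), where 31.4% of all genes tested were called higher and 32.1% lower. The median log2 fold of the 21 was 0.45, against 0.02 for all genes. Those with the largest rises were jing (0.80 ± 0.10), Kdm2 (0.70 ± 0.10) and the PRC2 subunit gene Su(z)12 (0.66 ± 0.09). In females against wild-type males edgeR called 0 of the 21 higher and 2 lower, where 10.8% of all genes were called higher and 11.2% lower. Their median log2 fold there was -0.01, against 0.04 for all genes. In roX-KO males against females 4 were higher and 0 lower, where 10.7% of all genes were called higher and 16.6% lower. The summed level of the 21 was 506 to 588 CPM in wild-type males, 732 to 747 in roX-KO males and 386 to 606 in females.

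Markers of cell types moved between the male groups as well, where 31.4% of all genes tested were called higher and 32.1% lower. Of 19 neuronal genes 16 were higher in roX-KO males and 1 lower, and their summed level was 748 to 971 CPM in wild-type males, 1440 to 1500 in roX-KO males and 690 to 1270 in females. Of 7 neural stem cell genes 4 were lower, among them ase, named above, and 1 was higher (pros, 0.61 ± 0.09). Their sums, pros included, were 81.2 to 101, 93.8 to 99.3 and 44.9 to 74.5 CPM, and those of the male groups overlapped. All 16 body wall muscle genes were lower, with sums of 53800 to 55100, 28000 to 28300 and 47300 to 50100 CPM, and of 12 larval cuticle genes 11 were lower and 1 higher, with sums of 1910 to 2010, 716 to 773 and 1680 to 2070 CPM. No gene of these 4 lists was at 0 in all libraries of a group, although 2 of the 12 cuticle genes were too low to test between roX-KO males and females. Mitochondrial genes took 9.70 to 12.3% of counts in wild-type males, 6.46 to 8.45% in roX-KO males and 5.70 to 8.06% in females. The part of these shifts in the higher levels of the regulators was not tested. The summed level of the 40 regulators was 224 to 257 CPM in wild-type males, 314 to 320 in roX-KO males and 277 to 372 in females, and female 3 was the lowest female in this sum and in those of the Polycomb group, neuronal, stem cell and cuticle genes.

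**Figure D5:**
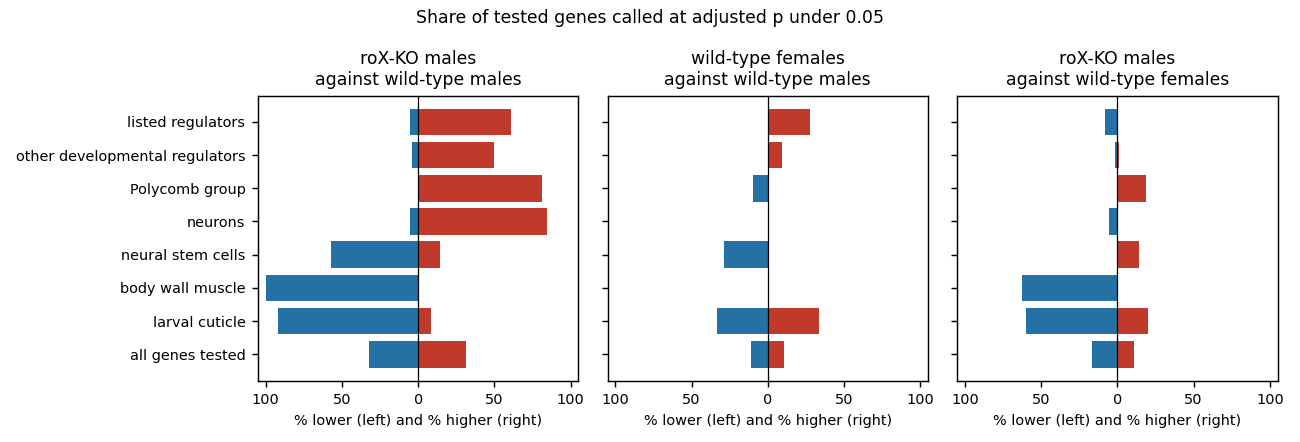
Percent of tested genes called higher (red, right) and lower (blue, left) at an adjusted p under 0.05 for the listed regulators, 6 other gene lists and all genes, in the 3 comparisons. Between the male groups the listed regulators have 61.1% higher, where all genes have 31.4%; between roX-KO males and females they have 0% higher.

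The authors' deposited table of the male libraries called fewer members. At an adjusted p under 0.05 there, 13 of the 22 members called higher here were also higher in the authors' deposited table and gt was also lower, while 9 of the 22, and the gene so, did not pass. Those 9 were kni, wg, Dr, lbl, Doc1, Doc2, Doc3, Dll and ara. No member was called in the authors' deposited table that was not called here. The share of all genes called in that table was not computed. DESeq2 run here on the male libraries gave the same adjusted p as that table for, among others, Kr (0.000865), kni (0.111) and gt (0.0135). Both rest on the same male libraries and are not separate results. The DESeq2 run here gave 13 members higher and 1 lower, where 21.0% of all genes were called higher and 23.3% lower.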

How the data were processed

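Polyadenylated RNA was read as paired ends on a DNBSEQ instrument, per the labels' protocols; no strand-marking step is described. The authors deposited raw counts per gene ID for each of 9 libraries. The genome build was dm6, and DESeq2, HTSeq 2.0.2, HISAT2 2.2.1 and SAMtools 1.13 are named, per the submitters' processing notes. The sources used here do not give their roles, the strand setting or the annotation. Reads listed as in no feature made up 47.7 to 49.9% of the sum of gene and no-feature reads and stayed out of library sizes. The authors also deposited a table of the male libraries with FPKM, a mean signal, log2 fold changes, a test score and p-values, per the file headers; its FPKM were not used.

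Symbols, positions and exon lengths came from an Ensembl annotation in dm6 coordinates, which matched 17556 IDs and left 55. Each comparison was fitted on its 6 libraries with filterByExpr (minimum count 10, minimum total 15), TMM and edgeR's quasi-likelihood test with robust dispersions, adjusted by Benjamini and Hochberg over all genes tested (edgeR 4.0.16, R 4.3.3). The SE is the log2 fold divided by the root of F. The fit was tested on simulated data. Log2 CPM used a prior count of 2. DESeq2 1.42.0 was an alternative. Tables and plots used pandas 2.3.3, matplotlib 3.10.9 and NumPy 2.4.6 in Python 3.11.15.

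The members and the other lists were chosen with earlier results of these data known, so no set test was made. All 40 members are described; from each other list at most 3 rises and 3 falls are named. Replicate numbers are shared by the groups, but in no comparison were the deviations of all same-numbered pairs clearly correlated, so the numbers were not used as pairs.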

Additional observations from a re-analysis of the deposited data

How the results depend on the processing

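None of the members' fold changes that passed in the reported fit or in an alternative changed sign. Between the male groups 22 members were higher and 2 lower. DESeq2 gave 13 and 1 (21.0% of all genes higher, 23.3% lower), and 1 fit of all 9 libraries gave 9 and 1 (18.0% and 21.4%). The number lower was also 1 with total counts, with a minimum count of 30 (gt was then not tested) and with the replicate block. Of all genes 21.4%, 32.9% and 31.5% were called lower in these fits, in that order. Leaving out a library gave 14 to 21 higher and 1 to 3 lower, where 26.9 to 32.5% of all genes were called higher and 28.6 to 33.9% lower. For females against wild-type males 10 were higher. Leaving out a library gave 2 to 24 higher, where 3.84 to 26.1% of all genes were called higher. The replicate block gave 3, where 4.34% of all genes were called higher. Leaving out both wild-type male 2 and female 3, a choice made after seeing the data, gave 26, where 31.1% of all genes were called higher. For roX-KO males against females 0 were higher and 3 lower, where 10.7% of all genes were called higher and 16.6% lower. The fit of all 9 libraries gave 1 higher and 5 lower (16.5% and 21.0% of all genes), and total counts 1 lower (11.7%). Leaving out a library gave 0 to 1 higher and 1 to 12 lower, where 8.99 to 31.6% of all genes were called lower. The 1 higher and the 12 lower came without female 3, where 3384 of 11280 genes were called higher and 31.6% lower. The cause of these differences was not tested. Fits without a library have fewer samples. In these, a group of 2 libraries is compared with 3. The replicate block rests on numbers alone: deviations of same-numbered libraries correlated at -0.01 in each pair of the male groups, and at 0.41, -0.60 and -0.45 for females and wild-type males, and at 0.01, 0.05 and 0.06 for roX-KO males and females. The biological coefficient of variation was 0.0763 between the male groups, 0.198 for females against wild-type males and 0.189 for roX-KO males against females, so small shifts were harder to call with the females. Genes under about 10 counts per library gave no usable fold.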
